A study of Mus musculus with 26 samples.

Results

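The 4 Hox clusters were followed through 13 mouse cell lines. The members are all genes whose platform symbol is Hoxa, Hoxb, Hoxc or Hoxd with a number, which gave 50 probes for 38 of the 16593 named genes measured (10 Hoxa, 10 Hoxb, 9 Hoxc and 9 Hoxd genes). The strain background is OG2 throughout, and RNA of each line was hybridised to a pair of arrays, a and b, of which the labels do not say whether they share an extract. One line, Fib-iPSC, was reprogrammed from fibroblasts, and 1 is the fibroblasts themselves. From the germline came 4 induced pluripotent lines (iPSC, derived from germline stem cells) and 4 further pluripotent lines (gPSC, labelled germline-derived). An embryonic stem cell line (ESC) and 2 lines of germline stem cells (GSC) complete the set. The labels state neither the reprogramming factors nor the route to the gPSC lines, nor the body site of the fibroblasts, nor whether feeder cells were present. The fibroblasts, ESC and Fib-iPSC are each a single line, so their values have no replicate line.

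Hox genes encode homeodomain transcription factors that give cells their position along the body axis. Within each cluster the genes stand in the order of their paralogue numbers, low numbers acting towards the head and high numbers towards the tail and the limb tips. Fibroblasts keep in culture a Hox pattern typical of the body site they came from, while in pluripotent cells the clusters are held inactive by Polycomb complexes at CpG-rich DNA that also carries activating Trithorax marks. In mouse, Hox proteins bind DNA together with cofactors of the Pbx and Meis families.

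CpG dinucleotides in the start regions are the sites to which Polycomb and Trithorax complexes are recruited, and 4 windows are shown to place the genes that carry the results below. They are RefSeq sequences of GRCm38.p6, from 250 bases before to 50 after the start, with CpG in capitals. Hoxb4 (chr11:96318017-96318316, plus strand, 14 CpG) belongs to the genes detected in GSC, while Hoxb8 (chr11:96281655-96281954, plus strand, 13 CpG) of the same cluster was detected in no line by its single probe. Hoxa5 (chr6:52204538-52204837, minus strand, 29 CpG) was well above background in gPSC 1 as well as in fibroblasts, and Hoxd10 (chr2:74691641-74691940, plus strand, 22 CpG) was the Hoxd gene with the largest difference between fibroblasts and pluripotent lines.
Hoxb4: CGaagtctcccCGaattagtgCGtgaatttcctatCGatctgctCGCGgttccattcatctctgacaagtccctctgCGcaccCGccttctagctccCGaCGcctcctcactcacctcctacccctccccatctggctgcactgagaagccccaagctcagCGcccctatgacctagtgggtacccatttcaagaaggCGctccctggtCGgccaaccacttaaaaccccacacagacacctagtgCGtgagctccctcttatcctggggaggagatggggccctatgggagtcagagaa
Hoxb8: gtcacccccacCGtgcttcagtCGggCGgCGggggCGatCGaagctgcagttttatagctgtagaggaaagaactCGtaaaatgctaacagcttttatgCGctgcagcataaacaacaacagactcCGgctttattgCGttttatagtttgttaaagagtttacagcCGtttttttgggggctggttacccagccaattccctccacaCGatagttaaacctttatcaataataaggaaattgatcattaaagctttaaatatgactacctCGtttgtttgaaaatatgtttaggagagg
Hoxa5: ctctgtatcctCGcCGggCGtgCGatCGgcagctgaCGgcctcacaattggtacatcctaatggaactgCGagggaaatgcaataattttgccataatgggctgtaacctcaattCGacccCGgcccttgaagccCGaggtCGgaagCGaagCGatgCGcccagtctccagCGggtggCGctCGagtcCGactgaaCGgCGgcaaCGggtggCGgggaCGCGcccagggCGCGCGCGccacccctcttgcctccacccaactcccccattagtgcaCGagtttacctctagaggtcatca
Hoxd10: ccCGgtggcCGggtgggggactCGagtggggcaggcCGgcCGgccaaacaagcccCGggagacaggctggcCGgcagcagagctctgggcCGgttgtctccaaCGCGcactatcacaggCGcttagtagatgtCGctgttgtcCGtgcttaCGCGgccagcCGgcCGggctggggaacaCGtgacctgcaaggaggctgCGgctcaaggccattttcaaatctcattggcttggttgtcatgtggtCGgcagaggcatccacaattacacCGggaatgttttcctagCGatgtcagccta
At least as many CpG as in Hoxb4, Hoxb8, Hoxa5 and Hoxd10 were held by 36.3%, 37.9%, 12.9% and 23.1% of all 32851 promoter windows. Of the 38 genes, 22 have a window in this table, 24 windows in all, with a median of 14.5 CpG (4 to 45) against 7 over all windows. The 6 genes called higher in fibroblasts that have a window held 6 to 29 CpG (median 14.5), and the other 16 genes held 4 to 45 (median 20), so the CpG counts of both sets overlap. The paired Pbx-Hox motif TGATTNAT, searched on both strands, was found in 2 of the 24 Hox windows, those of Hoxa2 and Hoxd11, and in 3.22% of all windows.

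The arrays had median intensities between 89.17 and 143.2, and 12097 to 13808 of 25697 probes per array had a detection p under 0.05, which means that at most 5% of the negative control probes were as bright. Levels are log2 intensities after background correction and quantile normalization, on which the lowest signal that counts as detected (the floor) had a median of 4.63. Markers were read beside the labels. Nanog, a pluripotency factor, stood at 4.36 in fibroblasts, at 10.79 to 12.04 in the 10 pluripotent lines and at 4.53 and 4.45 in GSC 1 and GSC 2, while Dazl, a germ cell RNA-binding protein, stood at 4.37 in fibroblasts, against 11.96 and 12.08 in the GSC lines. In the pluripotent lines Dazl ran from 5.93 to 10.8, with the highest levels in iPSC 3 (10.8) and gPSC 3 (9.94), and Tdgf1, a pluripotency marker, was near background in gPSC 3 (4.28), gPSC 4 (4.39) and Fib-iPSC (4.32), against 9.21 to 10.57 in the other 7. All 13 fibroblast and feeder markers on the array were detected in fibroblasts, with a mean of 8.86. One pluripotent line stood apart in these markers, which averaged 8.58 in gPSC 1, against 4.95 to 7.23 in the other 9 pluripotent lines and 6.09 and 6.46 in GSC 1 and GSC 2. The main differences it touches are given with and without it.

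The fibroblast line had by far the broadest Hox pattern. Counting a gene as detected when both arrays of a line gave one of its probes a detection p under 0.05, fibroblasts expressed 22 of 38 Hox genes (57.9%, against 47.3% of all named genes). They comprised 7 Hoxa genes (a2, a4, a5, a7, a9, a11, a13), 7 Hoxb genes (b2 to b7 and b9), 3 Hoxc genes (c6, c9, c10) and 5 Hoxd genes (d8, d9, d10, d12, d13). The GSC lines had 9 and 11 detected Hox genes (23.7% and 28.9%, against 51.4% and 52.4% of all genes), 5 of them the same Hoxb genes in both lines. Among pluripotent lines the count was lowest in gPSC 2 with 3 and highest in gPSC 1 with 14 (7.89% to 36.8%, against 49.7% to 53.1% of all genes).

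Over all lines, 25 of the 38 genes were detected in at least 1 line. Of these, 6 were detected in fibroblasts alone (Hoxa4, Hoxa9, Hoxa11, Hoxb9, Hoxd12, Hoxd13), and 3 were detected in other lines but not in fibroblasts (Hoxc4, Hoxc13, Hoxd11). The 13 genes detected in no line were Hoxa3, Hoxa6, Hoxa10, Hoxb1, Hoxb8, Hoxb13, Hoxc5, Hoxc8, Hoxc11, Hoxc12, Hoxd1, Hoxd3 and Hoxd4. A single array of a pluripotent line had 5 to 21 Hox probes with p under 0.05, where 2.5 of 50 would pass if all were at background, and 0 to 13 with p under 0.01. On the GSC arrays 12 to 14 probes passed 0.05 and 6 to 12 passed 0.01, and on the fibroblast arrays 26 to 29 and 17 to 20.

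**Figure D1:**
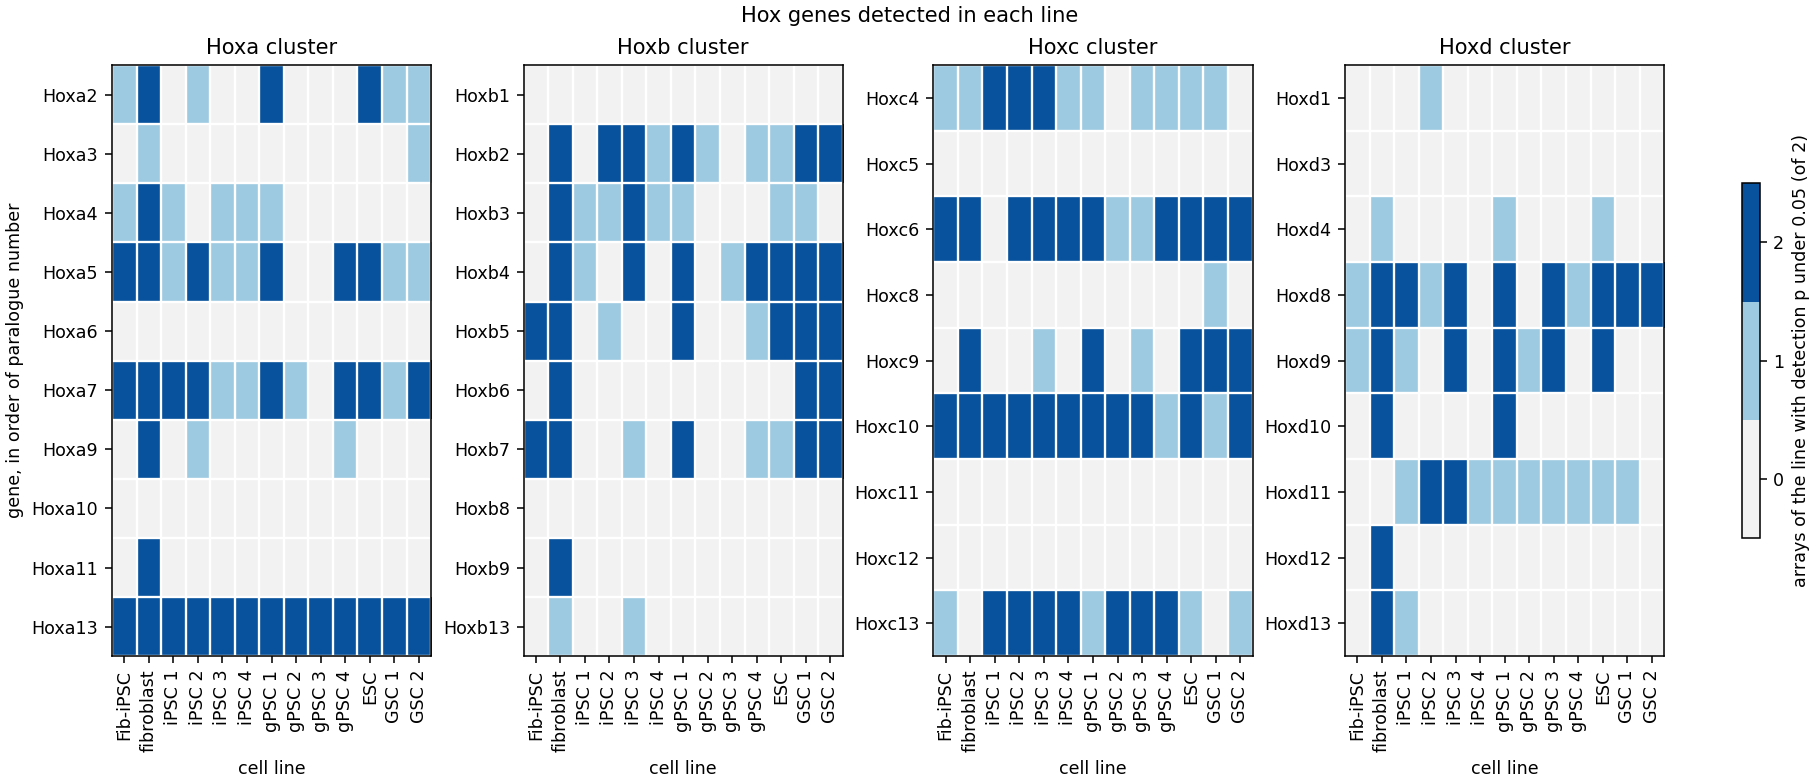
Number of arrays (0, 1 or 2) of each line on which a Hox gene was detected at p under 0.05, for its most often detected probe; columns are the 13 lines and rows the genes of each cluster by paralogue number. The fibroblast column is filled in all 4 clusters, the GSC columns mainly at Hoxb2 and Hoxb4 to Hoxb7, and Hoxa13 is marked in every line.

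Fibroblasts were set against the mean of the 10 pluripotent lines (iPSC, gPSC, ESC and Fib-iPSC, each line with equal weight). Of the 25 Hox genes tested, 14 were called higher in fibroblasts (limma, adjusted p under 0.05 and at least 2-fold) and 0 lower, where 13.1% of all 10660 genes tested were called higher. The median difference over the 25 genes was 1.43 (log2), against -0.07 over all genes. The 6 genes that entered the test through fibroblasts alone had to be higher there. So did Hoxb6, which entered through fibroblasts and GSC alone. These counts therefore describe the pattern and carry no further weight. The other 13 genes did not reach the detection filter.

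The largest differences lay in the middle of the Hoxc cluster. Hoxc6, a gene of the thoracic region, stood at 9.54 and 9.75 on the fibroblast arrays, and at 4.45 (lowest), 4.98 (median) and 7.31 (highest) in the pluripotent lines. The difference was 4.32 ± 0.75 (log2, SE; adjusted p = 0.00172), or 20-fold, and the highest pluripotent line was gPSC 1. Without gPSC 1 it was 4.54. Hoxc9 reached 8.23 and 8.24 in fibroblasts, against 4.29, 4.43 and 5.06 in the pluripotent lines, a difference of 3.72 ± 0.24 (adjusted p = 5.98e-06). Hoxc10, whose relatives pattern the lumbar region and hind limb, was at 6.61 and 6.46 in fibroblasts and at 4.70, 4.98 and 5.12 in the pluripotent lines (difference 1.58 ± 0.16, adjusted p = 9.47e-05). No pluripotent line overlapped the fibroblast arrays for any of these 3 genes.

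In the Hoxa cluster, Hoxa5 and Hoxa7 were high together. Hoxa5, needed in mouse for lung and trachea formation, measured 7.62 and 7.98 in fibroblasts, against 4.47, 4.74 and 6.78 (lowest, median, highest) in the pluripotent lines, and Hoxa7 7.55 and 7.77 against 4.55, 4.83 and 6.47. The differences were 2.75 ± 0.65 (adjusted p = 0.00846) and 2.65 ± 0.55 (adjusted p = 0.0045). For both genes gPSC 1 was the highest pluripotent line, and without it the differences were 2.95 for Hoxa5 (adjusted p = 0.000216) and 2.82 for Hoxa7 (adjusted p = 0.000123). Hoxa11, a limb and uterus gene, was at 6.55 and 6.31 in fibroblasts and was detected on 0 of 20 pluripotent arrays, where it stayed between 4.28 and 4.41. It was at least 3.47-fold higher in fibroblasts (adjusted p = 3.81e-06). Thus Hoxa11 was detected and Hoxa10, whose 2 probes gave no signal on any array, was not.

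All 5 Hoxb genes from Hoxb2 to Hoxb7 other than Hoxb3 were called higher in fibroblasts than in the pluripotent lines. Hoxb7 was at 7.52 and 7.74 in fibroblasts, against 4.34, 4.52 and 5.82 in the pluripotent lines (difference 2.98 ± 0.41, adjusted p = 0.000508). Hoxb2, a hindbrain gene, was at 7.59 and 7.42, against 4.45, 4.68 and 5.08 (2.77 ± 0.22, adjusted p = 2.55e-05). Hoxb4, also studied for its effect on blood stem cells, was at 7.22 and 7.24, against 4.27, 4.62 and 5.21 (2.58 ± 0.28, adjusted p = 0.000147). These genes thus separated the fibroblasts from every pluripotent line, gPSC 1 included. Hoxb5 was at 6.72 and 6.74 in fibroblasts, against 4.38, 4.57 and 5.33 (2.08 ± 0.25, adjusted p = 0.000222). For Hoxb6 the fibroblast arrays read 5.65 and 5.83 and 0 of 20 pluripotent arrays detected it (at least 2.15-fold, adjusted p = 0.000147). Hoxb9 read 5.46 and 5.18 in fibroblasts and was likewise detected on 0 of 20 pluripotent arrays. Its measured difference of 1.01 ± 0.12 (adjusted p = 0.000216) lay at the 2-fold limit, with a lower bound of 1.61-fold, and fell short of 2-fold when iPSC 1 or Fib-iPSC was left out, with b arrays only (0.88), with the line number as a replicate block (0.98) and with log2 quantile normalization alone (0.34).

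In the Hoxd cluster the signal centred on Hoxd8 and Hoxd10. Hoxd10 was at 7.26 and 7.05 in fibroblasts and at 4.27, 4.36 and 4.91 in the pluripotent lines, detected on 2 of 20 arrays there, both of gPSC 1 (difference 2.74 ± 0.19, adjusted p = 9.77e-06). Hoxd8 was at 7.0 and 7.03 in fibroblasts, against 4.47, 4.73 and 5.71 (2.18 ± 0.39, adjusted p = 0.00199). Both genes were highest among the pluripotent lines in gPSC 1, without which the differences were 2.79 for Hoxd10 and 2.28 for Hoxd8. Hoxd12 and Hoxd13, which pattern digits in mouse, were detected in fibroblasts at 5.30 and 5.12 and at 5.08 and 5.03. Neither reached 2-fold here, with differences of 0.92 ± 0.11 and 0.69 ± 0.13. The remaining uncalled genes differed by -0.26 to 0.92, among them Hoxa9 (5.57 and 5.14 in fibroblasts, against 4.24, 4.46 and 4.66), Hoxa4 (5.46 and 4.92, against 4.38, 4.49 and 4.6), Hoxa2 (5.48 and 5.13, against 4.27, 4.54 and 4.85) and Hoxd9 (5.37 and 5.61, against 4.47, 4.67 and 5.20).

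**Figure D2:**
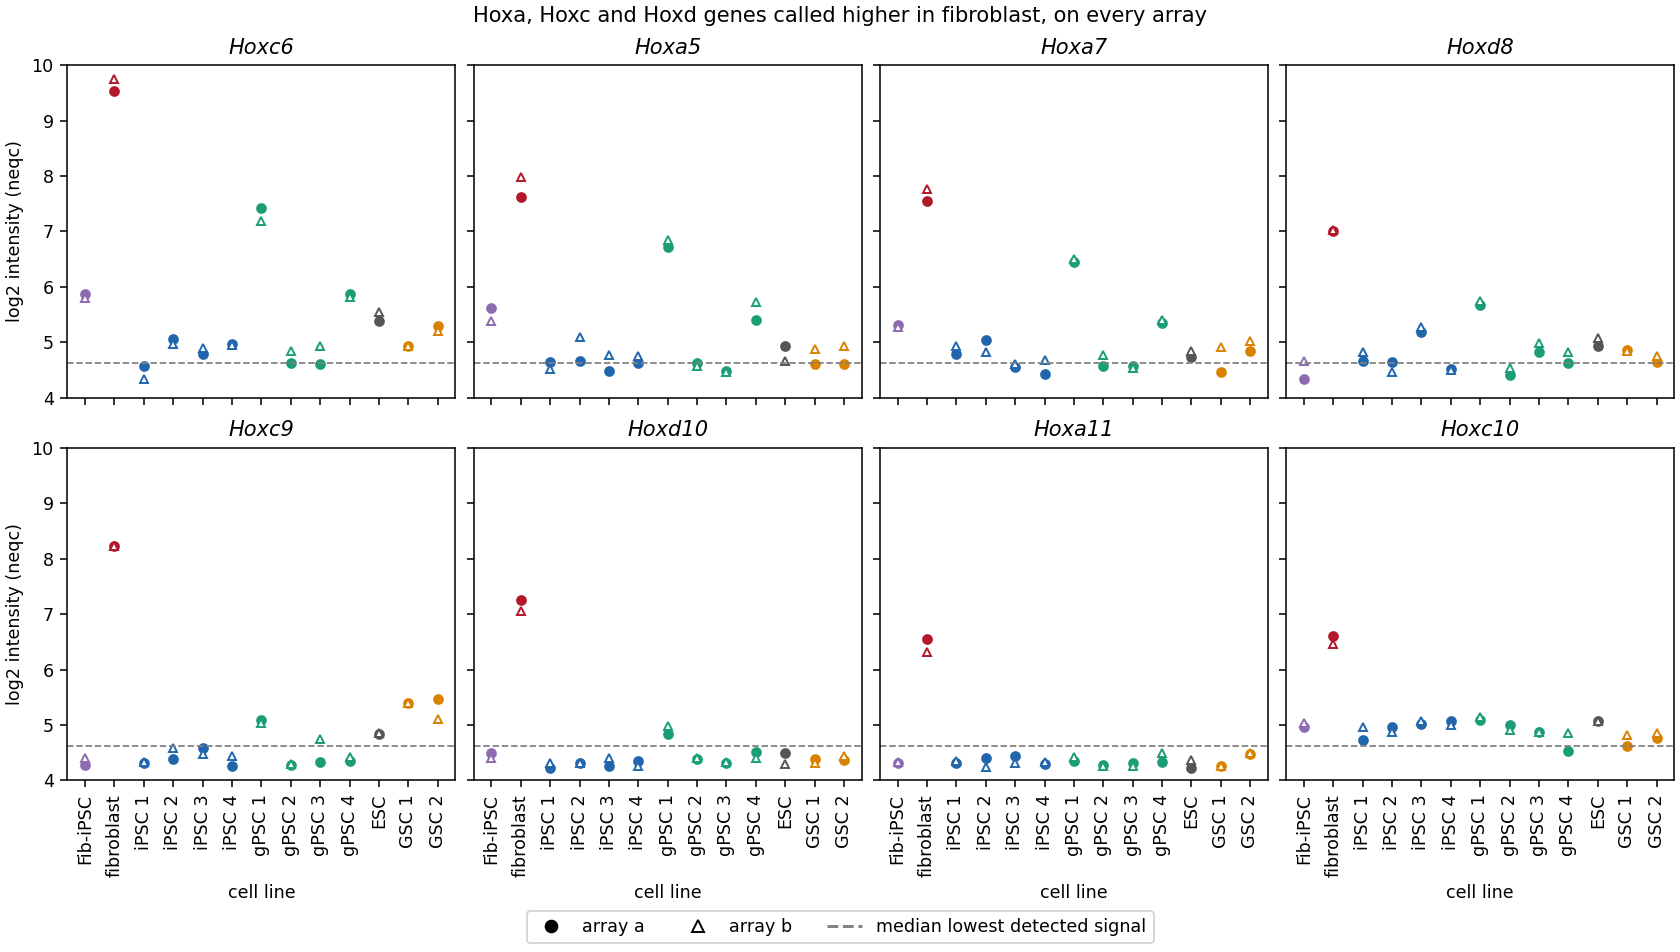
Log2 intensity on each array for the 8 Hoxa, Hoxc and Hoxd genes called higher in fibroblasts than in pluripotent lines; filled circles are a arrays, open triangles b arrays, and the dashed line is the median floor of 4.63. Fibroblasts are highest in every panel, and gPSC 1 is the second highest line for Hoxc6 (7.31), Hoxa5 (6.78), Hoxa7 (6.47) and Hoxd8 (5.71).

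The size of these differences depends on how the background was treated, since most pluripotent values lie near the floor: the Hoxc6 difference was 2.82 with log2 quantile normalization alone and 5.40 in the authors' processed values. With log2 quantile normalization alone, 8 of the 14 genes stayed past 2-fold, whereas the authors' processed values gave 19 calls, adding Hoxa2, Hoxa4, Hoxa9, Hoxd12 and Hoxd13. The share of all genes called in these 2 settings is not given here. Hoxa9 was also called when each probe was fitted separately. The adjusted p of each of the 14 genes stayed under 0.05 in all alternatives run, leaving out each line included. Because the fibroblasts are a single line, the test takes their spread from the other groups.

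Against the 2 GSC lines, 9 of 25 Hox genes were called higher in fibroblasts and 0 lower, where 14.6% of all genes were called higher. Here too, the 6 genes that entered the test through fibroblasts alone had to be higher there. The 9 were Hoxa5, Hoxa7, Hoxa11, Hoxc6, Hoxc9, Hoxc10, Hoxd8, Hoxd9 and Hoxd10, and no Hoxb gene was among them. Hoxc6 was at 9.54 and 9.75 in fibroblasts, against 4.94 and 5.25 in GSC 1 and GSC 2 (difference 4.55 ± 0.87, adjusted p = 0.00261). Hoxa5 was at 7.62 and 7.98, against 4.74 and 4.77 (3.05 ± 0.76, adjusted p = 0.00973), and Hoxa7 at 7.55 and 7.77, against 4.69 and 4.93 (2.85 ± 0.64, adjusted p = 0.006). Both groups lay well apart for these 3 genes. Hoxc9 was at 8.23 and 8.24 in fibroblasts and at 5.40 and 5.29 in GSC 1 and GSC 2, where 4 of 4 arrays detected it (2.89 ± 0.28, adjusted p = 6.2e-05). Hoxd10 and Hoxa11 were detected on 0 of 4 GSC arrays and were at least 5.85-fold and 3.54-fold higher in fibroblasts. Hoxd8 differed by 2.24 ± 0.45 and Hoxc10 by 1.77 ± 0.19. Hoxd9, at 5.37 and 5.61 in fibroblasts and 4.5 and 4.45 in GSC 1 and GSC 2 (1.02 ± 0.32, adjusted p = 0.0285), lost its call when either GSC line was left out (adjusted p = 0.0775 and 0.0863).

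For the Hoxb genes, levels in fibroblasts and GSC lay close together or were higher in GSC. For Hoxb7 the fibroblast arrays read 7.52 and 7.74 and the GSC lines 8.74 and 8.85. The difference of -1.16 (95% interval -2.25 to -0.07) had an adjusted p of 0.0789 and was not called, while it was called without gPSC 1 (adjusted p = 0.000475) and with all 26 arrays and the line as a random block (adjusted p = 0.0124). Hoxb2 stood at 7.59 and 7.42 in fibroblasts and at 7.30 and 7.40 in GSC 1 and GSC 2, a difference of 0.15 (95% interval -0.43 to 0.74). Hoxb4 was at 7.22 and 7.24 in fibroblasts and at 6.72 and 6.91 in the GSC lines (0.42, -0.32 to 1.15). Hoxb5 was at 6.72 and 6.74 in fibroblasts and at 6.67 and 6.76 in the GSC lines (0.01, -0.64 to 0.66), and Hoxb6 at 5.65 and 5.83 against 5.31 and 5.75 (0.21, -0.19 to 0.62). Fibroblast and GSC values of Hoxb5 and Hoxb6 overlapped, and the intervals of all 4 genes leave room for differences in either direction. The next genes of the cluster read otherwise: Hoxb8 was detected on no array of any line, and Hoxb9 was detected in fibroblasts and on 0 of 4 GSC arrays (4.38 and 4.36). Hoxb8 has a single probe, so a silent gene and a probe that does not respond cannot be told apart.

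**Figure D3:**
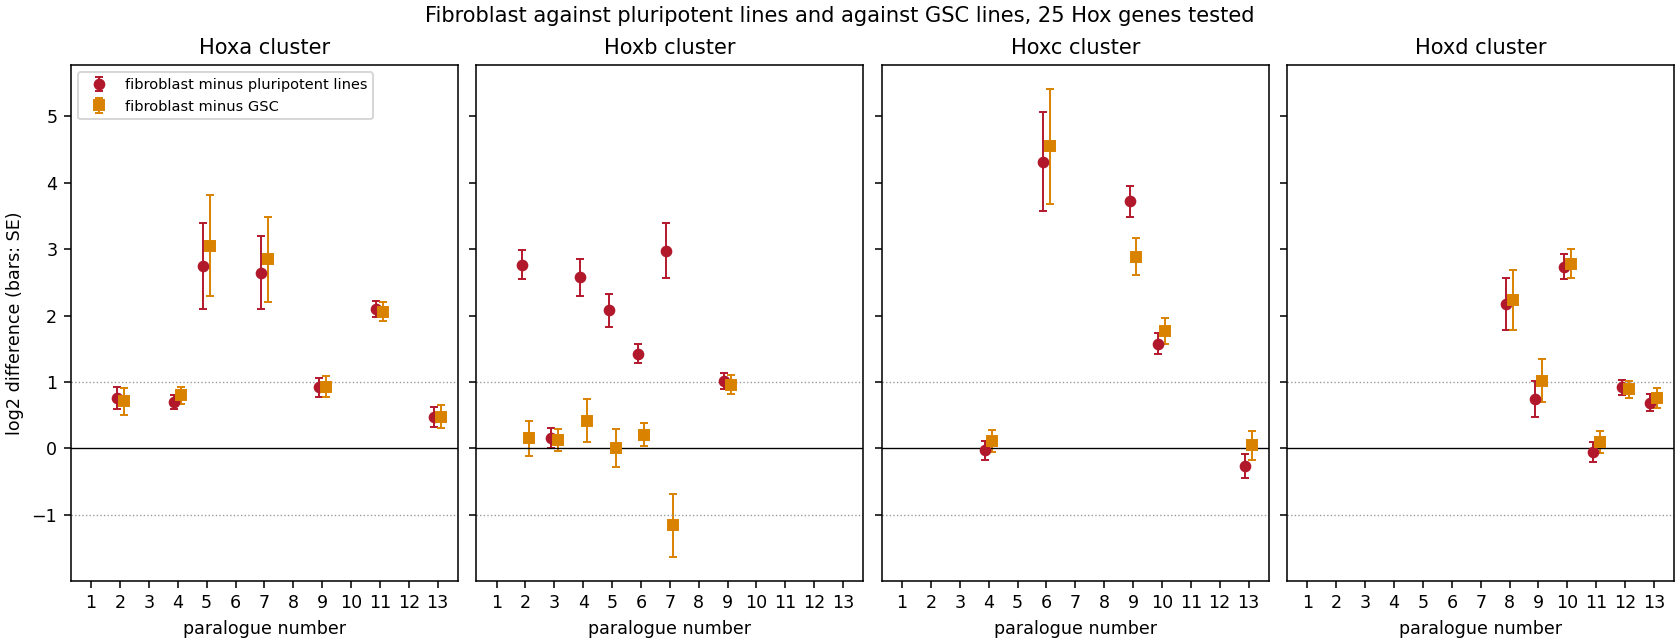
Log2 difference with its SE for the 25 Hox genes tested, fibroblast minus pluripotent lines (circles) and fibroblast minus GSC (squares), by paralogue number in each cluster; dotted lines mark 2-fold. Hoxc9 has its circle at 3.72 and its square at 2.89, whereas Hoxb2 and Hoxb4 to Hoxb7 have circles at 1.43 to 2.98 and squares at -1.16 to 0.42.

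The same 5 Hoxb genes separated GSC from the pluripotent lines derived from the germline. In iPSC against GSC, 5 of 25 Hox genes were called lower and 0 higher, where 11.7% of all genes were called lower, and in gPSC against GSC 5 were called lower and 0 higher, where 11.5% of all genes were. Both comparisons share the GSC lines and are given side by side for that reason. Hoxb7 was at 4.34, 4.38, 4.52 and 4.53 in the iPSC lines and at 5.82, 4.47, 4.42 and 4.61 in the gPSC lines, against 8.74 and 8.85 in GSC 1 and GSC 2. It fell by 4.35 ± 0.34 in iPSC (adjusted p = 1.43e-05) and fell by 3.96 ± 0.34 in gPSC (adjusted p = 2.6e-05). Every pluripotent line was thus below both GSC lines, and gPSC 1 was the one line with an intermediate level. Without gPSC 1, the gPSC difference was -4.29.

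Hoxb2 was at 4.51, 5.08, 4.73 and 4.63 in the iPSC lines and at 5.07, 4.95, 4.55 and 4.81 in the gPSC lines, against 7.30 and 7.40 in the GSC lines. It fell by 2.61 ± 0.18 in iPSC (adjusted p = 7.33e-06) and by 2.51 ± 0.18 in gPSC (adjusted p = 9.76e-06). Hoxb4 was at 4.6, 4.33, 4.69 and 4.41 in iPSC and at 5.21, 4.27, 4.63 and 4.87 in gPSC, against 6.72 and 6.91 in GSC, and fell by 2.31 ± 0.23 and by 2.07 ± 0.23. All iPSC and gPSC lines lay more than 1 log2 unit below both GSC lines for these genes. Hoxb5 was at 4.42, 4.53, 4.38 and 4.42 in iPSC and at 5.33, 4.61, 4.49 and 4.69 in gPSC, against 6.67 and 6.76 in GSC, and fell by 2.28 ± 0.20 and by 1.94 ± 0.20 (-2.12 in gPSC without gPSC 1). Hoxb6 was detected on 0 of 8 arrays of iPSC and 0 of 8 of gPSC, against 4 of 4 of GSC at 5.31 and 5.75. The bound was at least 1.91-fold lower for iPSC (adjusted p = 7.59e-05) and at least 1.82-fold lower for gPSC (adjusted p = 8.64e-05), and without GSC 2 its measured difference lay just under 2-fold (-0.99 and -0.97). Hoxb6 passed the detection filter through fibroblasts and GSC alone, so its direction here was fixed in advance. Its 2 calls describe the pattern and carry no further weight.

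Outside the Hoxb cluster, the GSC pattern was thin. Hoxc9 was at 4.32, 4.48, 4.53 and 4.36 in iPSC and at 5.06, 4.29, 4.54 and 4.39 in gPSC, against 5.40 and 5.29 in GSC. Its differences of -0.92 ± 0.20 (adjusted p = 0.00424) and -0.77 ± 0.20 (adjusted p = 0.0109) lay below 2-fold and were not called, while they were -2.20 and -1.85 and called in the authors' processed values. Hoxc6 and Hoxd8 were detected on 4 of 4 GSC arrays at 4.94 and 5.25 and at 4.85 and 4.70, against which the iPSC lines ran from 4.45 to 5.0 and from 4.51 to 5.22. Markers of other cell types were read beside this pattern. The fibroblast markers averaged 6.09 and 6.46 in GSC 1 and GSC 2, and 10 of 13 were detected in each. In gPSC 1 they averaged 8.58, with Hoxb2 at 5.07 and Hoxb7 at 5.82. Of 7 testis somatic markers, Wt1, a Sertoli cell factor, stood at 4.52 to 6.17 in the pluripotent lines and at 9.2 and 8.78 in GSC, and Sox9, another Sertoli cell factor, stood at 4.25 to 4.35 in the pluripotent lines and at 4.65 and 4.81 in GSC, detected on 3 of 4 GSC arrays. Gata4 was detected on 2 and Cyp11a1 on 1 of 4 GSC arrays, at levels within the range of the pluripotent lines or below it, and Amh, Star and Insl3 on 0 of 4. The part of such cells in the Hoxb signal was not tested, and in RNA from whole cultures fewer cells of a type and less RNA per cell cannot be told apart.

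**Figure D4:**
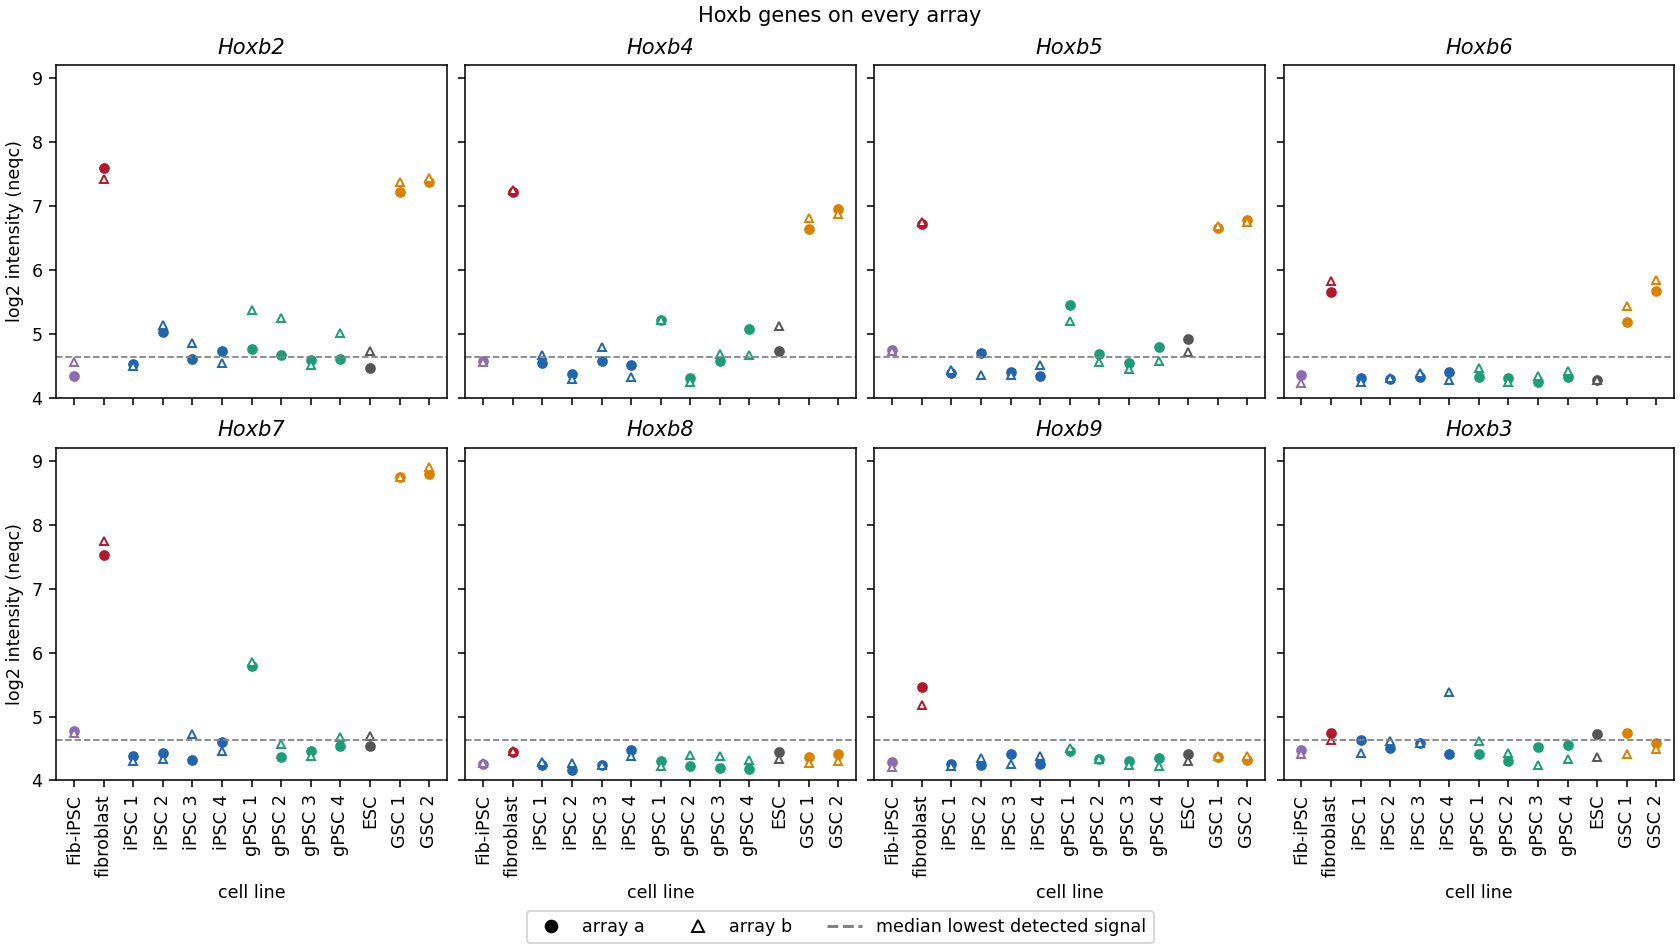
Log2 intensity on each array for 8 Hoxb genes, with filled circles for a arrays, open triangles for b arrays and a dashed line at the median floor of 4.63. For Hoxb2, Hoxb4, Hoxb5, Hoxb6 and Hoxb7 the fibroblast and GSC arrays stand above all pluripotent lines, Hoxb8 is at the floor or below it in every line, and Hoxb9 is raised in fibroblasts.

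Between iPSC and gPSC, the 2 kinds of pluripotent line derived from the germline, 0 of 25 Hox genes were called, as were 0.0% of all genes. At an unadjusted p under 0.05 limma counted 0 Hox genes and 830 of all genes (7.79%). The other fits also called 0 Hox genes. The difference farthest from 0 was that of Hoxc6, at 4.45, 5.0, 4.84 and 4.96 in the iPSC lines and at 7.31, 4.74, 4.77 and 5.84 in the gPSC lines (-0.85 ± 0.50, 95% interval -1.99 to 0.29). Hoxa5 differed by -0.66 (-1.65 to 0.32), Hoxa7 by -0.54 (-1.37 to 0.30) and Hoxb7 by -0.39 (-1.02 to 0.24). Without gPSC 1 these 4 differences were -0.30, -0.19, -0.13 and -0.06. The intervals leave room for differences beyond 2-fold in Hoxc6, Hoxa5, Hoxa7 and Hoxb7.

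The gPSC 1 line had more detected Hox genes than any other pluripotent line. All 14 were also detected in fibroblasts: Hoxa2, Hoxa5, Hoxa7, Hoxb2, Hoxb4, Hoxb5, Hoxb7, Hoxc6, Hoxc9, Hoxc10, Hoxd8, Hoxd9, Hoxd10 and Hoxa13, the last of which every line showed. Its signal above the median of 7 other pluripotent lines (all but gPSC 4 and Fib-iPSC) was expressed in percent of the signal of fibroblasts above the same median, a measure chosen after the data were seen. This share differed widely between genes. It was 43% for Hoxa5 (46.4% and 39.8% on its a and b array), 35.8% for Hoxa7 (38.6% and 33.2%) and 24.9% for Hoxd8 (25.3% and 24.4%). Hoxb5, Hoxb7 and Hoxc6 had 21.1%, 19.5% and 16.9%. Against these stood genes that were high in fibroblasts and low in gPSC 1, with 3.98% for Hoxc9 (5.0% and 3.67%), 5.69% for Hoxc10 and 5.55% for Hoxb2 (1.68% and 10.3%). The share was 10.2% for Hoxb4 and 8.19% for Hoxd10, and none is given for Hoxa11, Hoxb6 and Hoxb9, which neither gPSC 1 array detected.

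The fibroblast and feeder markers of gPSC 1 likewise differed widely in their level relative to the fibroblast line. Dcn and Lum, which encode small proteoglycans of the connective tissue matrix, were at 11.68 and 11.21 in gPSC 1, against 7.30 and 5.21 in fibroblasts. Mgp and Pdgfra were also higher in gPSC 1, at 12.52 and 8.76, against 9.35 and 7.98 in fibroblasts. Col1a2 and Twist2, by contrast, were at 6.27 and 6.28 in gPSC 1, against 9.6 and 9.77 in fibroblasts, and Postn was at 4.26 against 5.47. The remaining markers lay between these. In percent of the fibroblast signal, as defined above, gPSC 1 held 54.7% for Col3a1, 36.3% for Thbs2 and 32.1% for Pdgfrb. It held 29.5% for Twist1, 18.9% for Thy1 and 9.57% for Col1a1. Among pluripotency markers, Pou5f1 was at 12.05 in gPSC 1, against 11.42 to 12.06 in the other 9 pluripotent lines, and Nanog at 10.79 was the lowest of the 10 lines. The next highest lines for the fibroblast markers, gPSC 4 (mean 7.23) and Fib-iPSC (mean 7.04), were also the next highest for Hoxc6 (5.84 and 5.83), Hoxa5 (5.56 and 5.51) and Hoxa7 (5.37 and 5.30). Other genes did not follow that order: after gPSC 1 the highest line was iPSC 3 for Hoxd8 (5.22) and ESC for Hoxb4 (4.92), Hoxb5 (4.82) and Hoxc9 (4.85), and Hoxb2 was highest in iPSC 2 (5.08). The other 7 pluripotent lines, with marker means of 4.95 to 6.61, had Hoxa5 between 4.47 and 4.87. The part of fibroblast-like or feeder cells in these Hox levels was not tested.

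**Figure D5:**
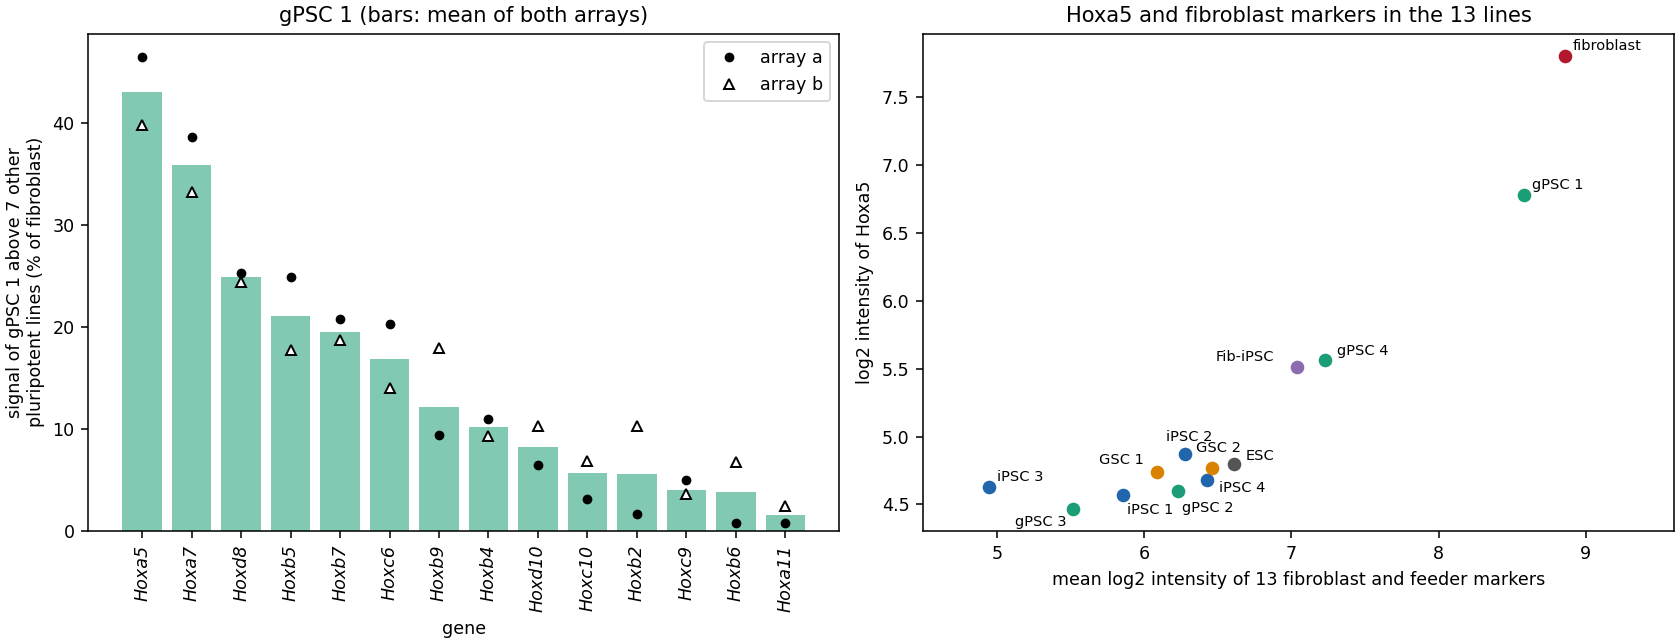
Left: signal of gPSC 1 above the median of 7 other pluripotent lines, in percent of the same quantity in fibroblasts. The 14 genes called higher in fibroblasts are shown (bars, both arrays averaged, and points, single arrays). Bars run from 43% for Hoxa5 down to 1.63% for Hoxa11. Hoxa11, Hoxb6 and Hoxb9 were not detected in gPSC 1, so their bars, with Hoxb9 at 12.2%, rest on background signal. Right: log2 intensity of Hoxa5 against the mean log2 intensity of 13 fibroblast and feeder markers in the 13 lines, where gPSC 1, gPSC 4 and Fib-iPSC follow the fibroblasts in both.

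The Fib-iPSC line was set against the fibroblasts to see how far the fibroblast Hox pattern was lost after reprogramming. This compares 1 line with 1 line and has no test. Of the 25 Hox genes, 14 were at least 2-fold lower in Fib-iPSC and 0 higher, where 14.9% of all genes were past 2-fold lower. The 14 are the genes called in fibroblasts against all pluripotent lines, of which Fib-iPSC is one. The 6 genes that passed the detection filter through fibroblasts alone, Hoxa11 and Hoxb9 among them, had to be lower here. So did Hoxb6, which passed it through fibroblasts and GSC alone. The count therefore describes the pattern and carries no further weight. Hoxc9 was at 4.28 and 4.40 on the Fib-iPSC arrays, with no detection, against 8.23 and 8.24 in fibroblasts, at least 11.8-fold lower. Hoxb2 was at 4.34 and 4.56, against 7.59 and 7.42 (at least 7.1-fold lower), Hoxb4 at 4.57 and 4.55, against 7.22 and 7.24 (at least 5.86-fold lower), and Hoxd10 at 4.49 and 4.40, against 7.26 and 7.05 (at least 5.56-fold lower). These 4 genes were detected on neither Fib-iPSC array.

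A few fibroblast genes stayed detectable in Fib-iPSC. Hoxc6 was at 5.87 and 5.79 in Fib-iPSC, against 9.54 and 9.75 in fibroblasts (log2 difference -3.82). Hoxa5 was at 5.62 and 5.39, against 7.62 and 7.98 (-2.30), and Hoxa7 at 5.31 and 5.28, against 7.55 and 7.77 (-2.37). In percent of the fibroblast signal, as defined above, Fib-iPSC held 3.65% for Hoxc6, 10.4% for Hoxa5 and 7.81% for Hoxa7. The germline-derived gPSC 4 line held 3.69%, 11.3% and 8.93% for the same genes. The source of these signals was not tested. Hoxb5 (4.75 and 4.73) and Hoxb7 (4.78 and 4.75) were also detected on both Fib-iPSC arrays, near the floor.

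In the ESC line 11 Hox genes were detected at p under 0.05 and 2 at p under 0.01. Hoxc6 was at 5.46, above the iPSC lines (4.45 to 5.0) and below gPSC 4. Hoxb4 (4.92), Hoxb5 (4.82), Hoxc9 (4.85), Hoxd8 (5.01) and Hoxd9 (4.80) were close to the floor. In the iPSC lines 4 to 11 genes were detected at p under 0.05 and 1 to 5 at p under 0.01. The count of 11 in iPSC 3, the line with the lowest fibroblast marker mean (4.95), included Hoxd8 (5.22), Hoxd9 (5.20) and Hoxc13 (5.26), each the highest or second highest value among the pluripotent lines.

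Low signals of a few probes were spread over many lines. Hoxa13, a gene of the limb tip and genital tubercle, was detected on 26 of 26 arrays by one probe, at 5.50 and 5.51 in fibroblasts and between 4.94 and 5.18 in the pluripotent lines, while its 2 other probes were detected on 5 and 1 of 26 arrays. Hoxc10 behaved the same way outside fibroblasts: one probe was detected on 22 of the 24 other arrays and the second on 1 of 24, although the fibroblast arrays read 6.61 and 6.46 with the first and 6.55 and 6.42 with the second. Hoxc13 was at 4.58 and 4.55 in fibroblasts, with no detection, and at 4.54, 4.77 and 5.26 (lowest, median, highest) in the pluripotent lines, where 17 of 20 arrays detected it. Hoxc4 (4.96 and 4.32 in fibroblasts, against 4.5, 4.64 and 4.88 in the pluripotent lines) and Hoxd11 (4.54 and 4.57, against 4.49, 4.59 and 4.87) were also near the floor in all lines. One Hoxb3 probe was detected on both fibroblast arrays (5.07 and 5.0) and on no other, whereas the probe used in the fit gave 4.74 and 4.64 in fibroblasts, with no detection, and 4.36, 4.53 and 4.90 in the pluripotent lines. Hoxa9 was detected on both fibroblast arrays by the probe used in the fit and by a second probe (5.15 and 5.52). Another Hoxa9 probe was detected on 0 of 26 arrays and read 4.37 and 4.28 in fibroblasts. For Hoxa9, Hoxa13, Hoxc10 and Hoxb3 the probes of 1 gene thus disagreed on where it is on.

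The TALE cofactors were measured beside the Hox genes. Of the 7 tested, 3 were called higher in fibroblasts than in pluripotent lines and 0 lower (list median 0.66, against -0.07 over all genes), where 13.1% of all genes were called higher and 12.5% lower. Against GSC, 4 were called higher in fibroblasts and 0 lower (median 1.35), where 14.6% of all genes were higher and 17.1% lower. Meis1, a direct partner of Hox proteins, was at 8.08 in fibroblasts, against a mean of 5.56 in the pluripotent lines and 4.88 in GSC, with differences of 2.51 ± 0.36 and 3.2 ± 0.42. Meis2 was at 8.68 in fibroblasts, against 6.61 and 5.06 (2.07 ± 0.65 and 3.62 ± 0.76), and Pbx3 at 5.86, against 4.86 and 4.44. Against GSC, 1 of 7 was called higher and 0 lower both in the iPSC and in the gPSC lines, namely Meis2 at 6.69 in iPSC and 6.66 in gPSC, against 5.06 in GSC (list medians 0.69 and 0.46, adjusted p = 0.0336 and 0.0381). Over all genes 11.1% were called higher and 11.7% lower in iPSC, and 10.2% higher and 11.5% lower in gPSC. Between iPSC and gPSC 0 were called.

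Of 12 tested activators and Trithorax genes, 3 were called higher and 3 lower in fibroblasts than in pluripotent lines (list median -0.17; 13.1% and 12.5% of all genes), and 2 higher and 2 lower than in GSC (median -0.35; 14.6% and 17.1% of all genes). Kmt2b, which encodes a histone H3 lysine methyltransferase, was at 6.06 in fibroblasts, against 7.59 in the pluripotent lines and 8.46 in GSC. Psip1, a chromatin reader that tethers such enzymes, was at 8.14 in fibroblasts, against 10.24 and 10.49. Crabp2, a retinoic acid carrier, was higher in fibroblasts at 7.36, against 5.36 and 5.41. Rarb, also called higher in both comparisons, was detected in fibroblasts alone and so had to be higher there. Against GSC, 2 were called higher and 2 lower in the iPSC lines (median -0.21, with 11.1% and 11.7% of all genes), and 1 higher and 1 lower in the gPSC lines (median -0.27, with 10.2% and 11.5% of all genes). Kdm6a, a demethylase of the Polycomb mark, was at 9.33 in iPSC and 9.21 in gPSC, against 7.63 in GSC, and Men1, a Trithorax subunit, was at 7.29 and 7.39, against 8.70. Between iPSC and gPSC 0 were called.

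Of 13 Polycomb genes tested, 1 was called higher and 5 lower in fibroblasts than in pluripotent lines (list median -0.90, with 13.1% of all genes higher and 12.5% lower), and 0 higher and 6 lower than in GSC (median -0.64, with 14.6% of all genes higher and 17.1% lower). Cbx7, a reader of the Polycomb mark, was at 4.22 in fibroblasts, with no detection, and at least 16.2-fold lower than in the pluripotent lines (8.81) and 4.33-fold lower than in GSC (6.91). Cbx2 and Cbx8 marked the GSC lines. Cbx8 was at 4.79 in iPSC and 4.6 in gPSC, against 8.15 in GSC, and fell by 3.36 ± 0.36 in iPSC and fell by 3.55 ± 0.36 in gPSC, while Cbx2 fell by 2.51 ± 0.14 and fell by 2.41 ± 0.14. Ezh2, the methyltransferase itself, was at 10.09 in iPSC and 10.17 in gPSC, against 8.17 in GSC. Against GSC, 4 were called higher and 3 lower in the iPSC lines (median 0.43, with 11.1% and 11.7% of all genes) and 3 higher and 3 lower in the gPSC lines (median 0.20, with 10.2% and 11.5% of all genes), and 0 were called between iPSC and gPSC.

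Genes that flank the Hoxa, Hoxc and Hoxd clusters were read for comparison. None of the listed neighbours of the Hoxb cluster (Skap1, Prac1, Ttll6 and Calcoco2) was tested. Of 10 tested neighbours, 0 were called higher and 2 lower in fibroblasts than in pluripotent lines (list median -0.51, with 12.5% of all genes lower), and 0 higher and 2 lower than in GSC (median -0.34, with 17.1% of all genes lower). Skap2, which adjoins the Hoxa cluster, was at 8.72 in fibroblasts, against 10.25 in GSC. Against GSC, 1 neighbour was called higher and 0 lower in the iPSC lines, Snx10 at 9.09 in iPSC against 8.06 in GSC, and 0 higher and 1 lower in the gPSC lines, Skap2 at 9.18 in gPSC against 10.25 in GSC, where 11.1% of all genes were called higher in iPSC and 11.5% lower in gPSC. Their medians were 0.37 and 0.32, and between iPSC and gPSC 0 were called.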

How the data were processed

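Total RNA of 13 lines was measured on 26 Illumina BeadChip arrays, 2 arrays per line (a and b), averaged and counted as 1 replicate; the labels do not say whether both share an RNA extract. BeadStudio 3.2 and lumi are named, with no role, in the submitters' processing notes. The authors' deposited intensity table is neither normalized nor background-subtracted, and the deposited detection p-value beside each intensity gives the share of negative controls (798 implied) at least as bright. The authors' processed values, on a log2 scale, are quantile normalized after a background adjustment that is not given in the sources used here; they served as an alternative.

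Intensities were normalized with neqc of limma 3.58.1 (R 4.3.3; offset 16, negative controls inferred from the detection p) and averaged per line. The fit kept the 15917 of 25697 probes that both arrays of some line detected at p under 0.05, with 1 probe per gene (highest mean), which left 10660 genes. Probes were named through the platform annotation (23978 named, 1719 unnamed). limma fitted 1 mean per group over 13 lines (7 residual and 9.29 total degrees of freedom), and a call needs a Benjamini-Hochberg adjusted p under 0.05 over all genes (two-sided) and a 2-fold difference. A fold written "at least" sets the bright group against the floors of arrays that never detected the gene. The lines of a group are separate lines, so p-values measure the spread between lines; for arrays, their number limits the precision. Tables were made with Python 3.11.15, and the fit was checked on simulated data.

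The members, gene lists and tests were chosen with earlier results of these data known. By rule, each Hox gene detected in a line is named with its values, the rest by detection alone, and of each further list up to 4 called genes. The lists are TALE cofactors, upstream activators and Trithorax, Polycomb, cluster neighbours, and other positional homeobox and T-box genes, with markers of fibroblasts and feeders, pluripotent cells, germline stem cells, testis somatic cells and early differentiation. Alternatives were other normalizations, detection limits, probes, array sets and blocks, and leaving out each line.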

Additional observations from a re-analysis of the deposited data

Results flagged for a closer look

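Each Hox gene tested was examined for a line standing apart within the 4 iPSC lines and within the 4 gPSC lines, 50 groups in all, by the gap to the next line divided by the whole range (Dixon's test). Chance flags about 1 in 20 groups, and 4 of 50 were flagged. Hoxb7 in gPSC 1 was at 5.82, against 4.42 to 4.61 in the other 3 gPSC lines, in the line where fibroblast and feeder markers averaged 8.58. The other 3 flags were small steps near the floor. Hoxb3 in iPSC 4 was at 4.90, while the other iPSC lines ran from 4.54 to 4.59, and its arrays a and b read 4.42 and 5.38. Hoxa13 in iPSC 1 was at 5.18, against 5.01 to 5.03, and Hoxd13 in iPSC 1 was at 4.58, against 4.31 to 4.35.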

How the results depend on the processing

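With log2 quantile normalization and no background correction, fewer Hox genes passed 2-fold: 8 in fibroblasts against pluripotent lines, 5 in fibroblasts against GSC, 2 in iPSC and 2 in gPSC against GSC, and 9 in Fib-iPSC against fibroblasts, all with adjusted p-values under 0.05 where tested. The authors' processed values gave 19 calls for fibroblasts against pluripotent lines, 15 against GSC, 7 for iPSC and 6 for gPSC against GSC, and 20 past 2-fold for Fib-iPSC against fibroblasts. The cause of these shifts was not tested. Leaving out each line gave 13 to 14, 8 to 10, 4 to 5, 4 to 5 and 0 to 0 calls in the 5 tested comparisons. With the line number as a replicate block the counts were 13, 8, 5, 5 and 0. The shares of all genes called under these alternatives are not given here. The counts alone therefore do not show a change particular to Hox genes. The data do not show that equal numbers pair the lines throughout. Same-numbered iPSC and gPSC lines correlated at -0.0665, -0.0679, 0.678 and -0.0662, high for iPSC 3 and gPSC 3 alone. The sign of 2 differences near 0 between fibroblasts and GSC turned: Hoxb5 was -0.07 with the replicate block and -0.03 without GSC 1 (leave-out range -0.03 to 0.06), and Hoxb6 was -0.01 without GSC 1 (range -0.01 to 0.44). At detection p under 0.01 on both arrays, the Hox genes detected in fibroblasts were 15, against 22 at p under 0.05. At the same strict limit they were 6 in GSC 1, 7 in GSC 2, and 2, 1, 5 and 3 in iPSC 1 to iPSC 4. In gPSC 1 to gPSC 4 they were 7, 0, 0 and 3, with 2 in ESC and 4 in Fib-iPSC. The share of all genes at this limit was not computed. With 1 array sufficing at p under 0.05, they were 26 in fibroblasts, 17 in GSC 1 and 15 in GSC 2. For iPSC 1 to iPSC 4 these counts were 13, 15, 17 and 11, and for gPSC 1 to gPSC 4 they were 20, 8, 10 and 14. ESC had 18 and Fib-iPSC 13. Over the genes called and a few uncalled ones described in the report, 895 differences were recomputed, which leaves out genes such as Hoxa2 or Hoxd12 that were called in the authors' processed values alone: 863 kept direction and call, 25 lost the call, 16 of them under log2 quantile normalization, 4 gained it and 3 turned. Signals within about 1 log2 unit of the floor of 4.63 limit what can be said of low Hox expression.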

Other observations

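Positional transcription factors outside the Hox clusters also differed between the lines. Of 20 tested homeobox, T-box and forkhead genes of this kind, 8 were called higher and 1 lower in fibroblasts than in pluripotent lines (list median 1.04, against -0.07 over all genes), where 13.1% of all genes were called higher and 12.5% lower. Against GSC, 8 were called higher and 2 lower in fibroblasts (median 0.89), where 14.6% of all genes were higher and 17.1% lower. Genes that entered the test through fibroblasts alone, Dlx2, Meox1, Lhx9 and Hand2 among them, had to be higher there. These counts and medians therefore describe the pattern and carry no further weight. Prrx1, a limb and craniofacial mesenchyme gene, was at 8.71 in fibroblasts, against 5.52 in the pluripotent lines and 4.98 in GSC. Dlx2, a pharyngeal arch and forebrain gene, was at 6.72 in fibroblasts and was detected on 0 of 20 pluripotent arrays (at least 4.24-fold higher). Foxd1, known from kidney stroma, was at 6.77 against 4.55 in the pluripotent lines.

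The GSC lines carried a different set. Foxf1, a gene of visceral mesoderm in mouse embryos, was at 4.41 in iPSC and 4.52 in gPSC, against 8.46 in GSC and 4.66 in fibroblasts, and was at least 14.5-fold lower in iPSC than in GSC. Foxf1 passed the detection filter through the GSC lines alone and so had to be higher there. Its calls, counted below, describe the pattern and carry no further weight. Barx1, a stomach mesenchyme gene, was at 4.74 in iPSC and 4.52 in gPSC, against 7.58 in GSC and 4.29 in fibroblasts. Against GSC, 1 of the 20 was called higher and 3 lower in the iPSC lines, 2 higher and 2 lower in the gPSC lines, and 0 were called between iPSC and gPSC. Over all genes 11.1% were higher and 11.7% lower in iPSC, and 10.2% higher and 11.5% lower in gPSC; the list medians against GSC were -0.02 and -0.02. Which cells carry these transcripts was not tested.

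Of 7 early differentiation markers on the array, 2 to 4 were detected in each pluripotent line and 1 in fibroblasts. Their mean ran from 4.85 (gPSC 2) to 5.33 (gPSC 4) in the pluripotent lines, with 4.86 in gPSC 1, the pluripotent line with the most detected Hox genes. Single markers differed in their order. Fgf8 was highest in gPSC 4 (7.96) and Fib-iPSC (7.48), and Gata6 in iPSC 3 (8.37) and iPSC 1 (7.61). The part of differentiating cells in the Hox levels was not tested.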
